A study of Homo sapiens with 18 samples.

Results

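Cells that expressed SRF-RELA, a fusion of serum response factor (SRF) with RELA, were set directly against cells that expressed SRF-PDGFRB, a fusion of SRF with PDGFRB. The comparison used the 3 SRF-RELA and 3 SRF-PDGFRB libraries, 6 of the 18 libraries of the series, and covered all genes. Each library came from MSC-hTERT, a human mesenchymal stem cell line immortalized with telomerase and grown in medium that held serum and FGF-2. The other 12 libraries, 3 each from pMSCV (a retroviral backbone by its name, serving as control), SRF, SRF-FOXO1 and SRF-ICA1L, shared the estimate of spread. Levels in pMSCV are given for many genes, and those in SRF-FOXO1 and SRF-ICA1L for a few only. The labels do not say whether a construct was carried by 1 clone or a pool, nor whether the 3 libraries of a group came from separate cultures. The p-values therefore measure the spread between these libraries, which may be technical.

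SRF is a transcription factor that binds the CArG box and switches on actin, contractile and immediate early genes together with its partners of the myocardin and ternary complex factor families. RELA, also called p65, is a subunit of NF-kB and carries strong transactivation domains, whereas PDGFRB is a receptor tyrosine kinase that responds to PDGF and drives growth of mesenchymal cells. Interferon gamma acts through transcription factors such as IRF1 on chemokine genes such as CXCL9 and, through the coactivator CIITA, on the class II MHC genes, while CISH and SOCS2 are feedback inhibitors that STAT5 induces.

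Promoters of genes that differed between the fusions are shown first, because they hold the letters of motifs that these factors are known to bind. The sequences are the 250 bases before the annotated start site, 5′ to 3′ on the strand of the gene, from RefSeq on GRCh38.p14. For the 4 genes that were higher in SRF-RELA with the replicate block, the capitals mark the CArG box. ACTG2 lies on the plus strand (chr2:73892758-73893007), and ACTA1 (chr1:229434095-229434344), ACTC1 (chr15:34795550-34795799) and RPE65 (chr1:68449955-68450204) on the minus strand.
ACTG2: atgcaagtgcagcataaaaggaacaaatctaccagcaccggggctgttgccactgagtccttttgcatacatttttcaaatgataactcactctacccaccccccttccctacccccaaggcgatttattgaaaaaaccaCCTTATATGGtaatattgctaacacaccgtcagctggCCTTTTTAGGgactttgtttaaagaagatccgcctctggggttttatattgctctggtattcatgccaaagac
ACTA1: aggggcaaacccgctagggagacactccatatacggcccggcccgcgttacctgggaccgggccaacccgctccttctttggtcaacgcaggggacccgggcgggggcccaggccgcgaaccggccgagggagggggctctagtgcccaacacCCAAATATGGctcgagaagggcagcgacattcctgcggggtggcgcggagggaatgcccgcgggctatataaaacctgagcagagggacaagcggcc
ACTC1: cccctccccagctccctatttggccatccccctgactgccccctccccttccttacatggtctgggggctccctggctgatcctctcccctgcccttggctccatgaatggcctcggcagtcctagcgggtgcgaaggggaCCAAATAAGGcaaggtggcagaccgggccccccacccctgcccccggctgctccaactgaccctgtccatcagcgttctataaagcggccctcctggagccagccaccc
RPE65: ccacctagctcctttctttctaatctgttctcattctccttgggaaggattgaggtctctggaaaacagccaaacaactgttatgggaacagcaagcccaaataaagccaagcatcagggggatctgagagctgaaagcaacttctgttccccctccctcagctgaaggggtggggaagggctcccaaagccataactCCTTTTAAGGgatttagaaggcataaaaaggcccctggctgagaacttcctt
The CArG boxes began 110 and 73 bases before the start site in ACTG2, 97 before it in ACTA1, 109 before it in ACTC1 and 52 before it in RPE65.

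For genes that were lower in SRF-RELA, the promoter of CISH (minus strand, chr3:50611775-50612024) is shown with its STAT motif of the GAS type (TTCNNNGAA) in capitals, and that of CXCL9 (minus strand, chr4:76007510-76007759) with the core of the interferon response element (GAAANNGAAA) in capitals.
CISH: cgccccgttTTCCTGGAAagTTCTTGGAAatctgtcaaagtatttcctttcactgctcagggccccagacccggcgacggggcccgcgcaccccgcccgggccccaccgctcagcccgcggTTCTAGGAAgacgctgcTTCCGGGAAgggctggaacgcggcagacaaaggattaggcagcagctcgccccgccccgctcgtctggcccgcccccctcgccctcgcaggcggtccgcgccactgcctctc
CXCL9: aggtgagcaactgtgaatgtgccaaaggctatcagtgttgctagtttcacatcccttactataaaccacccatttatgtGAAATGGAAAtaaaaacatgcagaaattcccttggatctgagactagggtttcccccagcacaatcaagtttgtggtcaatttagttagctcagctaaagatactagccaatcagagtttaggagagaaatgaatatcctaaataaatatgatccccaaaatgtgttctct
CISH held 4 GAS motifs, which began 241, 230, 129 and 112 bases before the start site, and CXCL9 held 1 response element core, 171 bases before it.

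Both strands of windows from 250 bases before to 50 bases after the start were searched for these 3 motifs and for the kappaB motif. The motifs may overlap each other. A CArG box occurred in 351 of 27305 promoters (1.29%), a kappaB motif in 10.8%, a GAS motif in 7.88% and the response element core in 3.65%. Of the genes called higher in SRF-RELA with the replicate block, 71 of 115 had a window, and 5 of these held a CArG box (7.04%): ACTA1, RPE65, ACTG2, ACTC1 and LDB3. In the same 71 windows a kappaB motif occurred in 12 (16.9%), a GAS motif in 5 (7.04%) and the response element core in 4 (5.63%). Of the 21 genes called higher without the block, 16 had a window, of which none held a CArG box and 1 (6.25%), that of PTPN7, a kappaB motif. A GAS motif occurred in 2 of these 16 (12.5%: RELA and CMKLR1) and the response element core in 2 (12.5%: RELA and KRT12). Of the genes called lower with the block, 27 of 42 had a window. None of these 27 held a CArG box, 6 held the response element core (22.2%: CXCL9, SECTM1, CEACAM1, FEZ1, SOCS1 and TNFRSF1B), 6 held a GAS motif (22.2%) and 7 a kappaB motif (25.9%). Of the 9 called lower without it, 7 had a window, with the response element core in 3 (42.9%), a kappaB motif in 2 (28.6%), a GAS motif in 1 (14.3%) and a CArG box in none. These are matches of letters in a window and were not tested.

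The 6 libraries held between 19362319 and 29132937 counts, with 26926 to 28058 genes at 1 count or more and 4.52% to 4.94% of counts from mitochondrial genes. Levels are given in CPM, a gene's counts scaled to the total of its library, in the order replicate 1, 2 and 3. A log2 difference is the log2 fold change of SRF-RELA over SRF-PDGFRB in an edgeR quasi-likelihood fit to the 18 libraries, and a gene is said to be called where its Benjamini-Hochberg adjusted p was under 0.05. Libraries with the same number deviated from their group means together, so a second fit had the replicate number as a block. The mesenchymal markers ENG, NT5E, THY1, CD44, VIM, PDGFRA, LUM and DCN were all expressed, with a summed level of 4511 to 5715 CPM in SRF-PDGFRB, against 4066 to 5149 CPM in SRF-RELA. SRF-RELA lay wholly above SRF-PDGFRB for THY1 (97.3 to 160 against 38.3 to 59.7 CPM) and CD44 (498 to 584 against 446 to 494 CPM). It lay wholly below for NT5E (385 to 530 against 588 to 728 CPM) and ENG (145 to 149 against 154 to 158 CPM). PDGFRA, VIM, LUM and DCN overlapped. Over all tested genes the shares were 4.13% above and 9.76% below. Of the 34 markers of 6 cell types, 19 passed the count filter and were tested. None of these was called in either fit, beside 0.162% of all tested genes without the block and 0.847% with it.

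Without the block, 30 of 18544 tested genes were called (0.162%). Of these, 21 were higher in SRF-RELA (0.113% of the genes tested) and 9 were lower (0.0485%). With the block, 157 genes were called (0.847%), 115 of them higher in SRF-RELA (0.62%) and 42 lower (0.226%). All 30 genes of the first fit were called in the second, 127 were called with the block alone, and the sign of the fold change was the same in both fits for all 157. The called fold changes were large: without the block they ran from 1.51 to 10.76 on the log2 scale in the higher genes, and from 1.24 to 7.79 in size in the lower ones. Each of the 30 genes had no overlap between the 3 SRF-RELA and the 3 SRF-PDGFRB libraries. Over all tested genes, SRF-RELA lay wholly above in 4.13% and wholly below in 9.76%.

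**Figure D1:**
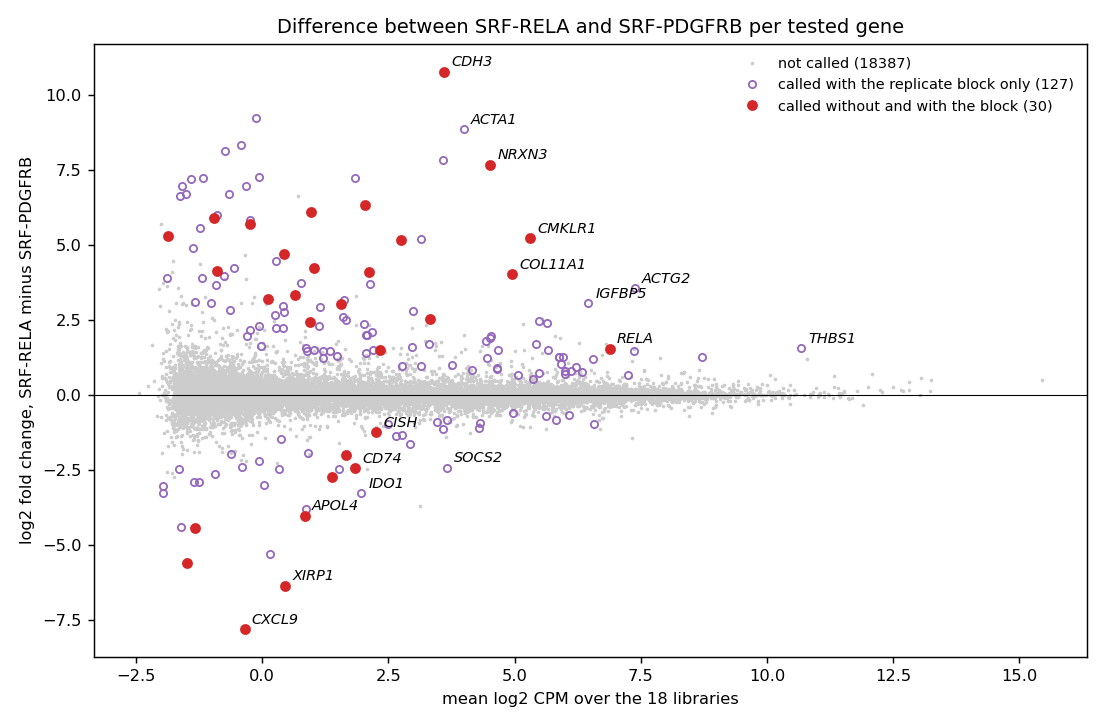
Log2 difference, SRF-RELA minus SRF-PDGFRB (y axis) against mean log2 CPM over the 18 libraries (x axis), 1 point per tested gene. Filled red points are the 30 genes called without and with the replicate block, and open purple circles the 127 called with the block alone. Most called genes lie above 0, led by CDH3 at 10.76, and CXCL9 is the lowest at -7.79.

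Among the called genes, the libraries were not equally often the highest. Of the 115 genes higher in SRF-RELA, SRF-RELA replicate 2 was the highest library in 85, replicate 3 in 22 and replicate 1 in 8. Of the 42 genes higher in SRF-PDGFRB, SRF-PDGFRB replicate 3 was the highest in 27. The same counts were not made over all tested genes, so whether this is particular to the called genes cannot be told. Without the block, 14 genes were called when SRF-RELA replicate 2 was left out (13 higher, 1 lower). Without SRF-PDGFRB replicate 1, 2 or 3 the counts were 13, 16 and 13. With the block the counts were 74 without SRF-RELA replicate 2, 94 without SRF-RELA replicate 3, and 69 and 82 without SRF-PDGFRB replicates 2 and 3. Called without the block in each of the 6 fits that left out 1 library were RELA, CDH3, DUSP2, CMKLR1, EXTL1, COL11A1 and CCDC190 among the higher genes, and APOL4 among the lower.

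The genes of the constructs came first. RELA (ENSG00000173039) was at 90.8, 90.6 and 92.4 CPM in SRF-PDGFRB and at 267, 234 and 268 CPM in SRF-RELA. The SRF-PDGFRB libraries lay close to the pMSCV libraries (95.6, 95.3 and 89.0 CPM), and the SRF-RELA libraries lay far above both. SRF-RELA minus SRF-PDGFRB gave a log2 difference of 1.55 (SE 0.08, adjusted p = 4.1e-08 in edgeR), in the direction that the labels predict. Counts per gene cannot separate the reads of a construct from those of the cell's own gene.

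PDGFRB (ENSG00000113721) was at 929.7, 526 and 673 CPM in SRF-PDGFRB and at 510.2, 425 and 416 CPM in SRF-RELA. Every SRF-PDGFRB library was above every SRF-RELA library, but the replicate 2 library only narrowly, and pMSCV stood at 502, 392 and 381 CPM. The log2 difference of -0.60 (SE 0.23) was not called (adjusted p = 0.902 in edgeR, and 0.275 with the block). SRF (ENSG00000112658) was at 337, 159.6 and 261 CPM in SRF-PDGFRB and at 326, 324 and 328 CPM in SRF-RELA. SRF-PDGFRB thus varied between libraries, at 253 ± 88.9 CPM (SD, n = 3), while SRF-RELA hardly did, and the groups overlapped. The log2 difference of SRF was 0.43 (SE 0.23, adjusted p = 1 in edgeR, and 0.753 with the block). In pMSCV, SRF was at 61.1, 64.4 and 57.3 CPM.

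CDH3 (ENSG00000062038), the adhesion molecule P-cadherin, was at 0.0348, 0 and 0 CPM in SRF-PDGFRB and at 17.0, 50.1 and 21.5 CPM in SRF-RELA. The SRF-PDGFRB level rested on a single count in replicate 1, where pMSCV had none in any library. Over the summed counts, 1 against 2326, the ratio was 2396 (95% interval 429.6 to 94660, covering counting error only), and the gene was called (adjusted p = 0.00103 in edgeR). CDH3 was also present in the other fusions, at 11.8 ± 7.90 CPM in SRF-FOXO1 and 28.4 ± 11 CPM in SRF-ICA1L (SD, n = 3 each).

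CMKLR1 (ENSG00000174600), the receptor of the chemoattractant chemerin, was at 1.67, 1.82 and 2.89 CPM in SRF-PDGFRB and at 34.8, 116 and 71.1 CPM in SRF-RELA. All SRF-RELA libraries were far above, with replicate 2 the highest. On the log2 scale the difference was 5.22 (SE 0.61, adjusted p = 0.00185 in edgeR). In pMSCV the gene was at 0.177, 0.688 and 0.658 CPM, below both fusions. Against pMSCV its log2 difference was 7.26 in SRF-RELA (adjusted p = 0.000254 in edgeR) and 2.05 in SRF-PDGFRB (adjusted p = 1 in edgeR, and 0.0159 with the block). These 2 comparisons share the pMSCV libraries. CMKLR1 was also at 81.1 ± 40.2 CPM in SRF-FOXO1 and 71.1 ± 32.6 CPM in SRF-ICA1L (SD, n = 3 each).

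NRXN3, a neurexin that works as a presynaptic adhesion molecule, was at 0.174, 0.309 and 0.362 CPM in SRF-PDGFRB and at 22.8, 107 and 32 CPM in SRF-RELA. The groups were far apart, and replicate 2 stood above the other SRF-RELA libraries. The gene had a log2 difference of 7.68 (SE 1.19, adjusted p = 0.0129 in edgeR), and the call was lost when SRF-PDGFRB replicate 1, 2 or 3 was left out (adjusted p up to 0.133 in edgeR). SYT12, a synaptotagmin, was at 0.484 ± 0.161 CPM in SRF-PDGFRB, against 8.02 ± 6.14 CPM in SRF-RELA (log2 difference 4.08, adjusted p = 0.0458 in edgeR). That call, too, was lost without any 1 of the SRF-PDGFRB libraries and without SRF-RELA replicate 2 or 3 (adjusted p up to 0.283 in edgeR). The neural markers SOX10, MAP2, GFAP and S100B summed to 3.15 to 4.53 CPM in SRF-PDGFRB, against 4.93 to 6.80 CPM in SRF-RELA, without overlap. Nearly all of each sum came from MAP2 and GFAP, since SOX10 was at 0 to 0.137 CPM and S100B at 0 to 0.07 CPM. The part of these 4 markers in the results for NRXN3, SYT12 and ARC, an immediate early gene of neurons, was not tested.

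**Figure D2:**
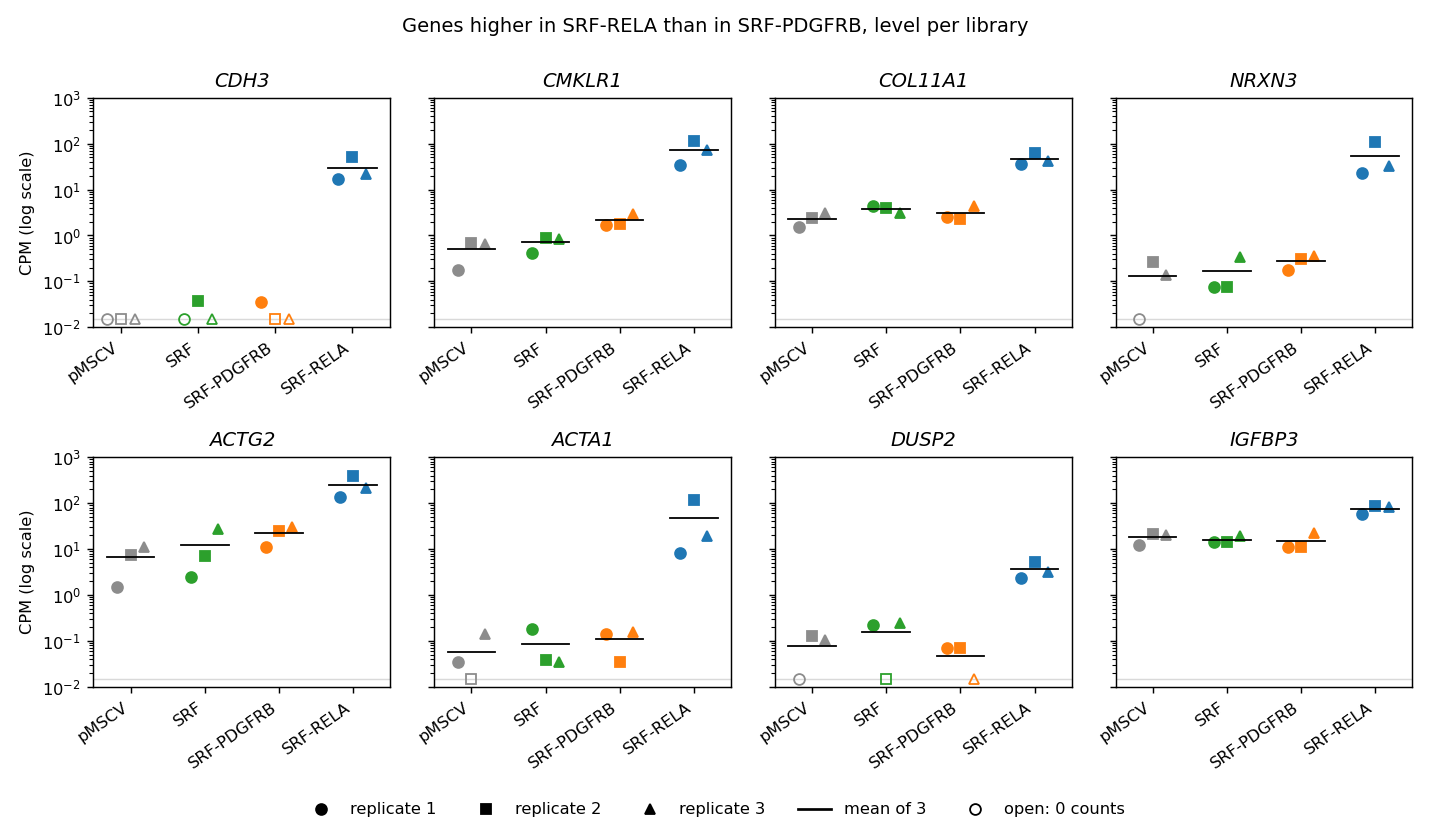
Level of 8 genes higher in SRF-RELA (CPM, log scale) in each library of pMSCV, SRF, SRF-PDGFRB and SRF-RELA. Circles, squares and triangles are replicates 1, 2 and 3, bars are means of 3, and open symbols on the grey line are libraries with 0 counts. In each panel the 3 SRF-RELA libraries lie above the 3 SRF-PDGFRB libraries, and in 7 of the 8 replicate 2 is visibly the highest. For IGFBP3, replicates 2 and 3 are level at 84.9 and 84.4 CPM.

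Among genes of the extracellular matrix, COL11A1 (ENSG00000060718), a fibrillar collagen chain, was at 2.54, 2.33 and 4.39 CPM in SRF-PDGFRB and at 35.6, 62.7 and 42.2 CPM in SRF-RELA. The SRF-PDGFRB libraries were near those of pMSCV (1.52, 2.36 and 3.05 CPM), and each SRF-RELA library was several times higher. The fitted log2 difference came to 4.01 (SE 0.50, adjusted p = 0.0029 in edgeR). THBS1, the matricellular protein thrombospondin-1, was at 839.5, 831 and 822 CPM in SRF-PDGFRB and at 1582, 3432 and 1965 CPM in SRF-RELA. SRF-PDGFRB libraries were almost equal and SRF-RELA replicate 2 stood above the rest. The log2 difference of 1.55 was not called without the block (adjusted p = 0.342 in edgeR) and was called with it (0.0451), a call lost without any 1 of the 6 libraries. Of 41 matrix genes, all tested, 1 was higher without the block and 2 with it, beside 0.113% and 0.62% of all tested genes, and none was lower. Their median log2 difference was 0.24, against -0.001 for all tested genes, and 28 of 41 were positive. Without SRF-RELA replicate 2 the median was 0.06. FN1, COL1A1 and COL3A1, the abundant fibronectin and collagen genes, had log2 differences of 0.51, 0.56 and 0.42 and were not called in either fit.

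Of the insulin-like growth factor binding proteins, which hold IGF in the extracellular space, IGFBP3 and IGFBP5 were higher in SRF-RELA with the block. IGFBP3 was at 11.2, 11.1 and 22.8 CPM in SRF-PDGFRB and at 57.2, 84.9 and 84.4 CPM in SRF-RELA. IGFBP5 was at 21.6, 6.28 and 27.7 CPM against 152, 121 and 168 CPM. In both genes every SRF-RELA library lay above every SRF-PDGFRB library. Their log2 differences were 2.41 (SE 0.46) and 3.06 (SE 0.57), just short of the threshold without the block (adjusted p = 0.0556 and 0.0501 in edgeR) and called with it (0.00392 and 0.00877). For IGFBP5 the blocked call was lost without SRF-PDGFRB replicate 2 (adjusted p = 0.0669 in edgeR). The other 5 tested genes of the IGF list, IGFBP4, IGFBP6, IGFBP7, IGF1R and IGF2R, were not called. With the block, 0.62% of all tested genes were called higher. Of the 11 listed genes, 7 passed the count filter, with a median log2 difference of 0.35 (0.007 without SRF-RELA replicate 2).

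Other secreted and membrane-bound products followed. ITIH3, a heavy chain of the hyaluronan-binding inter-alpha-trypsin inhibitor, was at 0.0348, 0.24 and 0.207 CPM in SRF-PDGFRB and at 3.95, 24.8 and 7.69 CPM in SRF-RELA. The groups did not overlap, and replicate 2 was again the highest SRF-RELA library. The log2 difference was 6.31 (SE 0.95, adjusted p = 0.00936 in edgeR), lost without SRF-PDGFRB replicate 1, 2 or 3 (up to 0.0919). EXTL1, a glycosyltransferase of heparan sulfate synthesis, was at 0.139, 0.275 and 0.31 CPM against 2.67, 6.07 and 4.09 CPM (log2 difference 4.22, adjusted p = 0.00322 in edgeR). SPINT1, a Kunitz-type protease inhibitor of epithelia, was at 0.348, 0.378 and 0.516 CPM against 1.73, 7.89 and 2.13 CPM. It was called at 3.34 (adjusted p = 0.0196 in edgeR), and lost without any 1 of the SRF-PDGFRB libraries or without SRF-RELA replicate 2 (up to 0.155).

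The keratins KRT12 and KRT17, filament proteins of epithelia, were higher in SRF-RELA. KRT12 had 3 counts in SRF-PDGFRB, all in replicate 3, and 175 in SRF-RELA, where it was at 0.755, 4.07 and 1.75 CPM. Its ratio was 60.1 (95% counting interval 20.2 to 294), and it was called (adjusted p = 0.0324 in edgeR), except without any 1 of the SRF-PDGFRB libraries and without SRF-RELA replicate 2 or 3 (up to 0.221). KRT17, which has near-identical copies among keratin pseudogenes so that its level is uncertain, was at 0.522, 0.343 and 0.62 CPM against 5.37, 37.7 and 7.73 CPM. Its log2 difference of 5.20 was called with the block only (adjusted p = 0.00309 in edgeR, and 0.0746 without). The epithelial markers EPCAM, CDH1, KRT5, KRT14 and KRT19 summed to 0 to 0.31 CPM in SRF-PDGFRB, against 0.62 to 1.26 CPM in SRF-RELA, with KRT5 at 0 in all 6 libraries. Their part in these results was not tested. In bulk RNA, fewer cells of a type and less RNA per cell cannot be told apart.

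Among actin and contractile genes, the classical targets of SRF, those called were called with the block only. ACTG2 (ENSG00000163017), the enteric smooth muscle actin, was at 11.1, 24.4 and 30.7 CPM in SRF-PDGFRB and at 139.8, 384 and 211 CPM in SRF-RELA. All SRF-RELA libraries were above all SRF-PDGFRB libraries, and pMSCV stood at 1.52, 7.61 and 11.4 CPM. The fit gave a log2 difference of 3.55 (SE 0.78, adjusted p = 0.121 in edgeR, and 0.0077 with the block). With the block the call was lost without any 1 of the SRF-PDGFRB libraries (0.0533 to 0.0797). ACTG2 was also at 491 ± 97.1 CPM in SRF-FOXO1 and 192 ± 24.4 CPM in SRF-ICA1L (SD, n = 3 each).

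ACTA1 (ENSG00000143632), the skeletal muscle actin, was at 0.139, 0.0343 and 0.155 CPM in SRF-PDGFRB and at 8.13, 114 and 19.8 CPM in SRF-RELA. ACTC1 (ENSG00000159251), the cardiac actin, was at 0.0348, 0.0343 and 0.207 CPM against 1.82, 42.7 and 9.11 CPM. In both genes the groups were far apart and SRF-RELA replicate 2 stood well above the other SRF-RELA libraries. Their log2 differences were 8.85 (SE 1.66, adjusted p = 0.0501 in edgeR, and 0.000803 with the block) and 7.83 (SE 1.83, adjusted p = 0.214 in edgeR, and 0.0023 with the block). Without SRF-PDGFRB replicate 2 the blocked call of ACTC1 was lost (0.0669). The means of ACTA1 and ACTC1 were 42.1 and 49.0 CPM in SRF-FOXO1, and 0.387 and 0.608 CPM in SRF-ICA1L. The actin genes resemble each other closely in sequence, and how reads that fit several genes were counted is not given in the sources used here, so the share of each is uncertain.

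ACTA2, the vascular smooth muscle actin, was at 17.3, 31.4 and 29.9 CPM in SRF-PDGFRB and at 49.3, 140.3 and 55.4 CPM in SRF-RELA. The libraries did not overlap, but the log2 difference of 1.72 (SE 0.57) was not called in either fit (adjusted p = 0.644 in edgeR, and 0.194 with the block). LMOD1, the actin nucleator leiomodin-1, was at 3.9, 9.41 and 5.22 CPM against 12.0, 33.6 and 15.8 CPM. It was called with the block only, at 1.80 (adjusted p = 0.0184 in edgeR, and 0.695 without), and the blocked call was lost without any 1 of the libraries other than SRF-RELA replicate 3 (up to 0.125). CNN1 (calponin) and TAGLN (transgelin), which mark smooth muscle differentiation, overlapped between the groups and were not called, with log2 differences of 1.12 and 0.83.

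Of 20 smooth muscle genes, 17 were tested. None was called without the block, and 2 were higher with it, beside 0.62% of all tested genes. Their median log2 difference was 0.53, and 15 of 17 were positive, against 49.7% of all tested genes. Without SRF-RELA replicate 2 the median was 0.17. MYOCD, the cofactor that directs SRF to smooth muscle genes, was at mean levels of 6.35 and 4.46 CPM in SRF-PDGFRB and SRF-RELA (log2 difference -0.42) and was not called.

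Of 27 cytoskeletal SRF targets of general expression, all tested, none was called without the block and 1 was higher with it, beside 0.62% of all tested genes. This was CSRP1, a LIM protein of actin filaments. CSRP1 was at 206, 247 and 262 CPM in SRF-PDGFRB and at 357, 790.2 and 481 CPM in SRF-RELA. The groups did not overlap, and the log2 difference was 1.26 (SE 0.33, adjusted p = 0.27 in edgeR, and 0.00331 with the block). The list's median was 0.11. ACTB and VCL, which encode beta-actin and vinculin, had log2 differences of 0.26 and 0.32, and FLNA (filamin A) one of -0.01, none of them called.

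Among striated muscle genes, 11 of 24 passed the count filter. With the block, ACTA1, ACTC1 and LDB3 were higher in SRF-RELA and XIRP1 was lower, and without it only XIRP1 was called. Of all tested genes, 0.62% were higher and 0.226% lower with the block, and 0.0485% were lower without it. LDB3, a Z-disc protein, was at 0.383, 1.13 and 0.465 CPM in SRF-PDGFRB and at 2.58, 17.2 and 5.06 CPM in SRF-RELA (log2 difference 3.69, adjusted p = 0.336 in edgeR, and 0.00877 with the block). Its blocked call was lost without SRF-PDGFRB replicate 2 or 3 or SRF-RELA replicate 2 (up to 0.125). PLN, phospholamban, the regulator of the calcium pump of muscle, was outside these lists and was called without the block, at 0.592, 0.549 and 1.24 CPM against 2.09, 6.59 and 3.13 CPM (log2 difference 2.43, adjusted p = 0.0458 in edgeR). It lost the call without any 1 of the libraries other than SRF-RELA replicate 1 (up to 0.313). The myogenic factors MYOD1, MYOG and MYF5 and the satellite cell factor PAX7 had 0 counts in all 6 libraries.

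RPE65, the retinoid isomerase of the retinal pigment epithelium, held a CArG box in the window printed above. It had 3 counts in SRF-PDGFRB and 495 in SRF-RELA, where it was at 2.67, 10.8 and 5.26 CPM. The ratio was 169.9 (95% counting interval 57.8 to 827), and the gene was called with the block (adjusted p = 0.000379 in edgeR) but not without it (0.0688). It was at 8.26 ± 8.37 CPM in SRF-FOXO1 and 5.40 ± 3.59 CPM in SRF-ICA1L (SD, n = 3 each), and had 0 counts in pMSCV.

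Of the genes that respond to growth factor signalling, DUSP2 was higher in SRF-RELA in both fits. DUSP2 (ENSG00000158050), a nuclear phosphatase that inactivates MAP kinases, was at 0.0696, 0.0687 and 0 CPM in SRF-PDGFRB and at 2.40, 5.36 and 3.22 CPM in SRF-RELA. The SRF-PDGFRB libraries held 4 counts in all, like the few of pMSCV, and each SRF-RELA library was far above them. SRF-RELA minus SRF-PDGFRB gave a log2 difference of 6.10 (SE 0.78, adjusted p = 0.00261 in edgeR). Of the other ERK feedback genes, only DUSP5 was called, with the block and at a small size: 37.2, 15.2 and 25.9 CPM against 45.9, 30.7 and 42.2 CPM (log2 difference 0.66, adjusted p = 0.0484 in edgeR, and 1 without). Its groups overlapped, and the blocked call was lost without any 1 of the libraries other than SRF-RELA replicate 1 (up to 0.333). DUSP6, SPRY2, SPRY4 and ETV5, which ERK signalling induces, had log2 differences of -0.30, -0.15, -0.38 and -0.18 and were not called. The 21 genes of the list had a median of -0.15. Of all tested genes, 0.113% were called higher without the block and 0.62% with it.

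PTPN7, a phosphatase of MAP kinases best known in blood cells, was at 0.139, 0.0343 and 0.207 CPM in SRF-PDGFRB and at 1.11, 4.10 and 3.89 CPM in SRF-RELA. It was called at 4.69 (SE 0.71, adjusted p = 0.00936 in edgeR), except without SRF-PDGFRB replicate 1 or 2 (0.0763 and 0.0704). The hematopoietic markers summed to 1.39 to 2.48 CPM in SRF-PDGFRB, against 2.09 to 3.89 CPM in SRF-RELA, with CD3E at 0 in all 6 libraries; their part in this result was not tested. ARC, a known SRF target, was at 0.139, 0.24 and 0.258 CPM against 1.95, 1.96 and 1.67 CPM. The 3 SRF-RELA libraries were nearly equal, and the log2 difference was 3.19 (SE 0.49, adjusted p = 0.00936 in edgeR), lost without SRF-PDGFRB replicate 1, 2 or 3 (up to 0.0919).

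EGR2 and EGR3, zinc finger factors of the immediate early class, were called with the block only. EGR2 was at 20.5, 7.45 and 9.71 CPM in SRF-PDGFRB and at 46.1, 24.1 and 33.2 CPM in SRF-RELA (log2 difference 1.5, adjusted p = 0.907 in edgeR, and 0.00214 with the block). EGR3 was at 16.5, 2.85 and 2.69 CPM against 53.9, 15.1 and 15.9 CPM (log2 difference 1.98, adjusted p = 1 in edgeR, and 0.00285 with the block). In both genes replicate 1 was the highest library of either group, and within each replicate number SRF-RELA was above SRF-PDGFRB; the EGR3 groups overlapped when numbers were ignored. FOSL1, the AP-1 component FRA1, went the other way, at 42.4, 18.2 and 26.2 CPM against 19.1, 9.68 and 14.7 CPM (log2 difference -0.94, adjusted p = 0.908 in edgeR, and 0.0312 with the block, lost without any 1 of the libraries other than SRF-PDGFRB replicate 3). FOS, FOSB, EGR1, JUN and MYC overlapped between the groups and were not called. Of the 21 immediate early genes, none was called without the block. With it 2 were higher and 1 was lower, beside 0.62% and 0.226% of all tested genes. The list's median log2 difference was 0.18, and it was -0.21 without SRF-RELA replicate 1.

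PDGFB, the B chain of the PDGF ligand that binds PDGFRB, was at 0, 0.275 and 1.03 CPM in SRF-PDGFRB and at 1.38, 3.96 and 4.89 CPM in SRF-RELA. The groups did not overlap, and pMSCV held 1 count in its 3 libraries. On the log2 scale the difference was 3.17 (SE 0.84), called with the block (adjusted p = 0.008 in edgeR) and not without it (0.296), and the blocked call was lost without SRF-PDGFRB replicate 2 (0.106). The other 5 tested genes of the PDGF list, PDGFA, PDGFC, PDGFD, PDGFRA and PDGFRB, were not called in either fit. With the block, 0.62% of all tested genes were called higher.

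Other genes higher in SRF-RELA without the block included CCDC190, LINC01614, FOXRED2, KLHDC8A, ENSG00000234819 and BTG2. CCDC190, a coiled-coil protein, was at 0.731, 0.927 and 0.878 CPM against 5.37, 8.20 and 6.27 CPM (log2 difference 3.03, adjusted p = 0.000875 in edgeR). LINC01614, a long non-coding RNA, was at 0.243 ± 0.185 CPM against 8.78 ± 7.78 CPM (log2 difference 5.16, adjusted p = 0.0123 in edgeR). FOXRED2, an oxidoreductase of the endoplasmic reticulum, had 1 count in SRF-PDGFRB and 51 in SRF-RELA (ratio 52.5, 95% counting interval 9.01 to 2115, adjusted p = 0.00931 in edgeR). KLHDC8A had 2 counts against 38 (ratio 19.6, 95% counting interval 5.06 to 167, adjusted p = 0.034 in edgeR), and ENSG00000234819 had 1 against 80 (ratio 82.4, 95% counting interval 14.4 to 3295, adjusted p = 0.0221 in edgeR). Of these 5, CCDC190 kept its call without each library in turn, and the others lost it without SRF-PDGFRB replicate 1 or 2 (up to 0.19), KLHDC8A, ENSG00000234819 and LINC01614 also without SRF-PDGFRB replicate 3, and KLHDC8A and ENSG00000234819 without SRF-RELA replicate 2. KLHDC8A lost it without SRF-RELA replicate 1 as well (0.0922). BTG2, an antiproliferative gene, was called at 1.51 (adjusted p = 0.00936 in edgeR) and was named after its value was seen. BTG2 lost its call without SRF-PDGFRB replicate 2 or 3 or SRF-RELA replicate 2 (up to 0.0796), and kept it in each such fit with the block. AMZ1, a metalloprotease, and the non-coding COPG2IT1 were called with the block only, at log2 differences of 2.93 and 2.61 (adjusted p = 0.0125 and 0.00588 in edgeR). The blocked call of AMZ1 was lost without SRF-PDGFRB replicate 2 (0.125) or SRF-RELA replicate 2 (0.0961).

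The genes lower in SRF-RELA, and so higher in SRF-PDGFRB, included targets of interferon gamma. CXCL9 (ENSG00000138755), the chemokine MIG, was at 8.11, 1.24 and 3.10 CPM in SRF-PDGFRB and at 0, 0.0351 and 0 CPM in SRF-RELA. All SRF-PDGFRB libraries were above SRF-RELA, whose 3 libraries held a single count together, and pMSCV stood at 0.0354, 0 and 0.139 CPM. Over the summed counts, 329 against 1, the ratio of SRF-PDGFRB to SRF-RELA was 319 (95% counting interval 56.9 to 12650), and the gene was called (adjusted p = 0.00936 in edgeR). The call was lost without SRF-RELA replicate 1, 2 or 3 (0.0582, 0.114 and 0.0584) and held with the block without each of them.

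CXCL10 (ENSG00000169245), the chemokine IP-10 that shares the receptor of CXCL9, was at 59.9, 29.9 and 40.9 CPM in SRF-PDGFRB and at 0.622, 4.87 and 3.93 CPM in SRF-RELA. The groups were far apart, and pMSCV was at 0.637, 0.043 and 1.87 CPM. Its log2 difference of -3.71 (SE 0.85) nevertheless missed the threshold in both fits (adjusted p = 0.154 in edgeR, and 0.0565 with the block). APOL4 (ENSG00000100336), an apolipoprotein L gene that interferons induce, was at 6.30, 7.14 and 10.4 CPM against 0.666, 0.245 and 0.501 CPM. The SRF-RELA libraries were at the level of pMSCV (0.319, 0.602 and 0.416 CPM). The fitted log2 difference came to -4.03 (SE 0.41, adjusted p = 0.000375 in edgeR), and the largest adjusted p without 1 library was 0.00407.

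IDO1, the tryptophan-degrading enzyme that interferon gamma induces, was at 21.4, 5.56 and 14.9 CPM in SRF-PDGFRB and at 2.35, 0.456 and 1.42 CPM in SRF-RELA. The groups did not overlap, and replicate 2 was the lowest library in both. The log2 difference was -3.27 (SE 1.03, adjusted p = 0.565 in edgeR, and 0.000285 with the block). IRF1, the transcription factor upstream of many of these genes, was at 44.0, 36.3 and 48.8 CPM against 28.5, 20.2 and 33.8 CPM (log2 difference -0.59, adjusted p = 0.626 in edgeR, and 0.0227 with the block). Its blocked call was lost without SRF-PDGFRB replicate 2 or 3 or SRF-RELA replicate 1 or 2 (up to 0.18).

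Of 47 interferon response genes, 45 were tested. Without the block 2 were lower in SRF-RELA (CXCL9 and APOL4), beside 0.0485% of all tested genes. With it 4 were lower (CXCL9, APOL4, IDO1 and IRF1), beside 0.226%, and none was higher in either fit. The list's median log2 difference was -0.14, and 11 of 45 were positive. Genes that type I interferon induces, such as IFIT1, ISG15, OAS1 and IFI44L, had log2 differences of 0.15, 0.17, -0.12 and 0.07 and were not called. CXCL11, the third ligand of the receptor that CXCL9 and CXCL10 bind, was at means of 27.1 and 28.3 CPM in SRF-PDGFRB and SRF-RELA (log2 difference 0.14). GBP2, a guanylate binding protein, was at 149 CPM in SRF-PDGFRB, against 252 CPM in SRF-RELA (log2 difference 0.82) and was not called.

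**Figure D3:**
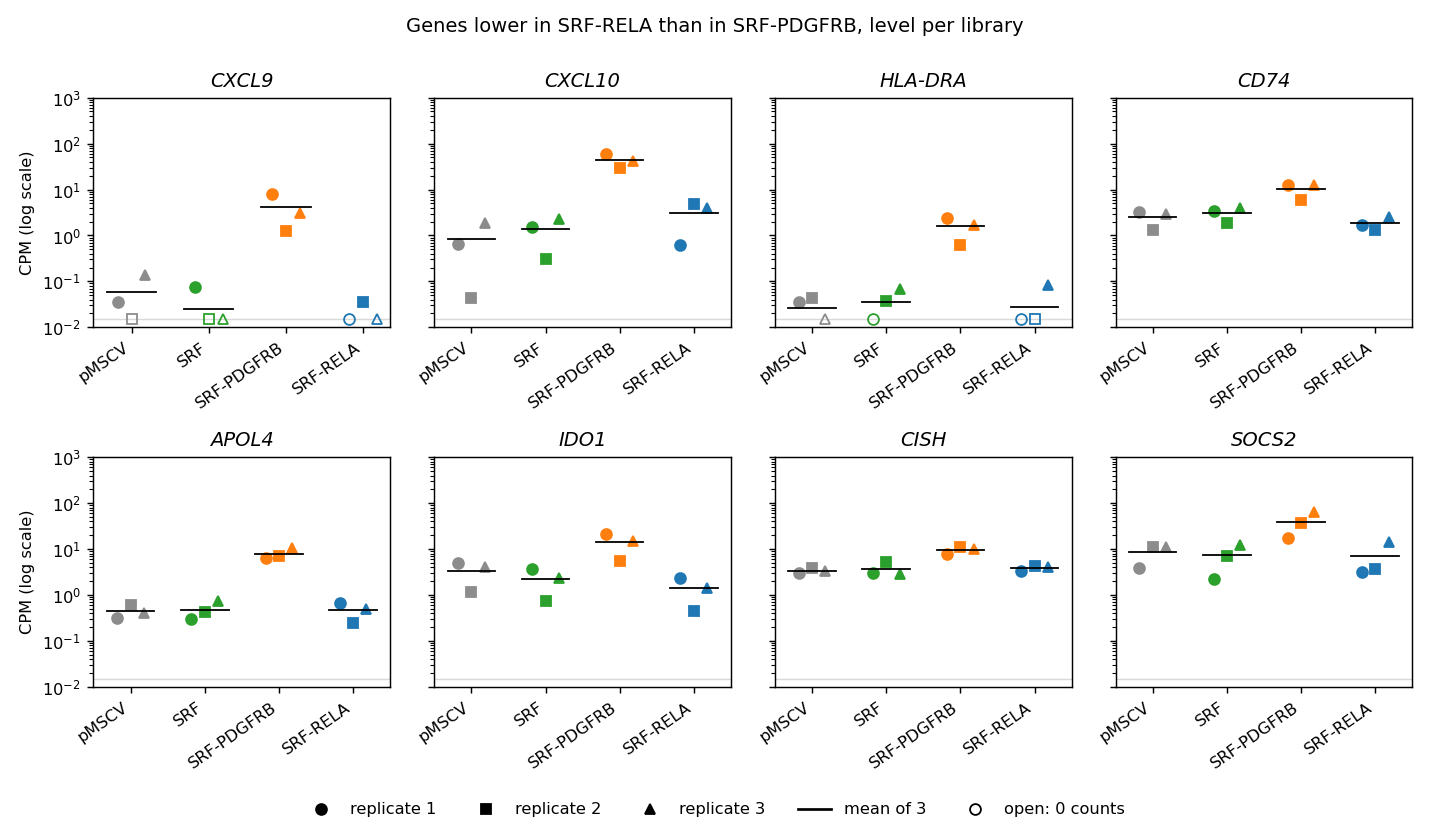
Level of 8 genes lower in SRF-RELA (CPM, log scale) in each library of pMSCV, SRF, SRF-PDGFRB and SRF-RELA, drawn as in the plot of genes higher in SRF-RELA. In each panel the 3 SRF-PDGFRB libraries lie above the 3 SRF-RELA libraries. CXCL10 was not called in either fit, and IDO1 and SOCS2 were called with the block only.

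Class II MHC genes, which present antigen to helper T cells and are normally silent in mesenchymal cells without interferon gamma, were low in both groups, and 4 of the 10 tested were lower in SRF-RELA with the block. HLA-DRA (ENSG00000204287) was at 2.44, 0.618 and 1.70 CPM in SRF-PDGFRB and at 0, 0 and 0.0836 CPM in SRF-RELA. With 121 counts against 2, the ratio of SRF-PDGFRB to SRF-RELA was 58.7 (95% counting interval 15.9 to 491). It was called (adjusted p = 0.0123 in edgeR), except without SRF-PDGFRB replicate 1 or 3 or SRF-RELA replicate 1 or 2 (up to 0.134). CD74 (ENSG00000019582), the invariant chain that accompanies class II molecules, was at 12.3, 5.94 and 12.8 CPM against 1.69, 1.30 and 2.51 CPM. SRF-RELA lay close to pMSCV (3.22, 1.33 and 2.87 CPM), and SRF-PDGFRB above both. Its log2 difference was -2.44 (SE 0.37, adjusted p = 0.00931 in edgeR), lost without SRF-RELA replicate 2 (0.0788).

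CIITA, the master coactivator of class II genes, was at 2.54, 2.33 and 2.74 CPM in SRF-PDGFRB and at 0.533, 1.09 and 1.00 CPM in SRF-RELA. The groups did not overlap, and pMSCV (0.85, 1.03 and 0.796 CPM) was at the level of SRF-RELA. SRF-RELA minus SRF-PDGFRB gave a log2 difference of -1.46 (SE 0.30, adjusted p = 0.0768 in edgeR, and 0.00678 with the block). HLA-DPA1 was at 2.86, 0.995 and 3.20 CPM against 0.311, 0.596 and 0.334 CPM (log2 difference -2.39, adjusted p = 0.0891 in edgeR, and 0.0308 with the block). Its blocked call was lost without SRF-PDGFRB replicate 1 or 3 or SRF-RELA replicate 1 or 3 (up to 0.21). The HLA genes resemble each other, so reads may have been split between them.

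Of 17 class II genes, 10 were tested, 2 were lower in SRF-RELA without the block and 4 with it, beside 0.0485% and 0.226% of all tested genes, and the median log2 difference was -0.94. The regulators RFX5, RFXAP and RFXANK, which bind class II promoters, had log2 differences of -0.06, 0.03 and 0.04. Of the 7 genes that failed the count filter, HLA-DRB1, HLA-DRB5 and HLA-DQB1 were at means of 0.479, 0.295 and 0.219 CPM in SRF-PDGFRB and had 0 counts in SRF-RELA. Of the class I MHC and antigen processing genes, none of the 20 tested was called, their log2 differences lay between -0.24 and 0.06, and HLA-B and B2M were at -0.19 and -0.08. The shares called over all tested genes were 0.162% without the block and 0.847% with it. PTPRC, which marks blood cells, was at 0.052 to 0.275 CPM in SRF-PDGFRB, against 0.125 to 0.178 CPM in SRF-RELA.

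Among feedback inhibitors of cytokine signalling, CISH was lower in SRF-RELA in both fits, and SOCS1 and SOCS2 with the block. CISH (ENSG00000114737) was at 7.97, 11.2 and 10.1 CPM in SRF-PDGFRB and at 3.42, 4.28 and 4.18 CPM in SRF-RELA. SRF-RELA libraries were near pMSCV (3.04, 3.83 and 3.39 CPM), and every SRF-PDGFRB library was higher. On the log2 scale the difference was -1.24 (SE 0.23, adjusted p = 0.0374 in edgeR). The call was lost without any 1 of the 6 libraries (0.061 to 0.221) and held in each such fit with the block.

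SOCS2 (ENSG00000120833) was at 17.7, 36.5 and 63.3 CPM in SRF-PDGFRB and at 3.20, 3.65 and 14.3 CPM in SRF-RELA. Both groups were highest in replicate 3, and the groups did not overlap. The gene had a log2 difference of -2.42 (SE 0.74, adjusted p = 0.507 in edgeR, and 0.00013 with the block). SOCS1, an inhibitor of interferon signalling, was at 9.12, 13.9 and 21.0 CPM against 4.75, 4.28 and 7.52 CPM (log2 difference -1.35, adjusted p = 0.307 in edgeR, and 0.00588 with the block, lost without SRF-PDGFRB replicate 2 at 0.0596). SOCS3, which STAT3 induces, overlapped between the groups and was not called (log2 difference 0.21). Of 21 genes of STAT5 and SOCS feedback, 19 were tested, with 1 lower without the block (0.0485% of all tested genes), 3 lower with it (0.226%) and none higher in either fit. Their median of 0.02 was near that of all genes, and STAT5A, STAT5B, JAK2 and PIM1 had log2 differences of 0.05, -0.02, 0.07 and 0.22.

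Against pMSCV, the same fit gave CISH log2 differences of 1.51 in SRF-PDGFRB (adjusted p = 0.0379 in edgeR) and 0.27 in SRF-RELA (1). For APOL4 they were 4.15 (0.000501) and 0.12 (1), and for HLA-DRA 5.72 (0.0379) and 0.13 (1). Of the 9 genes lower in SRF-RELA, 5 were called in SRF-PDGFRB against pMSCV, beside 0.0324% of all tested genes, while CD74, ALOX5AP, CEACAM1 and SECTM1 were not (adjusted p = 0.0733, 0.0733, 0.169 and 0.963 in edgeR). With the block, where 0.178% of all genes were called, SECTM1 alone of the 9 was not (0.133). In SRF-RELA against pMSCV none of the 9 was called in either fit, beside 0.183% of all genes without the block and 0.971% with it. The comparisons share the pMSCV libraries. The 9 genes were also chosen for being higher in these same SRF-PDGFRB libraries than in these SRF-RELA libraries. Their counts against pMSCV were thus favoured in advance and are a description, not a separate test. For 4 of the 9 genes lower in SRF-RELA the pMSCV mean was below both fusions and for 5 it lay between them. For the 21 higher genes the numbers were 11 below and 10 between.

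Of the other genes lower in SRF-RELA, XIRP1, an actin-binding protein of muscle cell junctions, was at 15.8, 2.16 and 3.41 CPM in SRF-PDGFRB and at 0, 0.105 and 0.125 CPM in SRF-RELA. SRF-PDGFRB replicate 1 was well above the other SRF-PDGFRB libraries, and pMSCV had 1 count in 3 libraries. The fit gave a log2 difference of -6.35 (SE 1.13, adjusted p = 0.0351 in edgeR), lost without any 1 of the libraries other than SRF-PDGFRB replicate 2 (up to 0.21). ALOX5AP, the activating protein of leukotriene synthesis, was at 7.14, 6.04 and 12.1 CPM against 1.15, 0.982 and 1.46 CPM (log2 difference -2.74, adjusted p = 0.00931 in edgeR, and 0.0763 without SRF-RELA replicate 2). SECTM1, a secreted ligand of CD7, was at 6.89, 7.55 and 9.71 CPM against 1.64, 1.37 and 2.76 CPM (log2 difference -2.01, adjusted p = 0.0221 in edgeR). CEACAM1, an adhesion molecule of the carcinoembryonic antigen family, was at 1.74, 0.755 and 2.38 CPM against 0.0888, 0.105 and 0 CPM (log2 difference -4.43, adjusted p = 0.0458 in edgeR). CEACAM1 lost its call without any 1 of the 6 libraries, and SECTM1 without any other than SRF-RELA replicate 3 (up to 0.199 and 0.186).

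With the block only, ROS1, SERPINB4, TNFRSF1B, AOX1, C15orf62, FEZ1 and STC2 were also lower in SRF-RELA. ROS1, an orphan receptor tyrosine kinase, was at 13.1, 15.6 and 28.5 CPM in SRF-PDGFRB and at 3.64, 9.89 and 3.76 CPM in SRF-RELA (log2 difference -1.63, adjusted p = 0.64 in edgeR, and 0.0404 with the block). TNFRSF1B, a receptor of TNF, was at 13.1, 11.1 and 10.4 CPM against 5.11, 4.56 and 3.13 CPM (log2 difference -1.37, adjusted p = 0.478 in edgeR, and 0.046 with the block). STC2, the glycoprotein hormone stanniocalcin-2, was at 99.97, 121 and 189.5 CPM against 63.7, 65.4 and 74.3 CPM (log2 difference -0.95, adjusted p = 0.722 in edgeR, and 0.0451 with the block). SERPINB4, a protease inhibitor that shares most of its sequence with a neighbouring copy, was at 10.8 ± 1.48 CPM against 1.81 ± 2.54 CPM, and its level is uncertain (adjusted p = 0.0492 in edgeR with the block). The blocked calls of these 7 genes were lost without between 2 (AOX1, SRF-RELA replicate 2 or 3) and 6 libraries (TNFRSF1B and FEZ1), with adjusted p up to 0.236 in edgeR.

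No gene of the NF-kB lists other than RELA itself was called. NFKBIA, the inhibitor that NF-kB induces in a feedback loop, was at 117, 133 and 104 CPM in SRF-PDGFRB and at 107, 137 and 125 CPM in SRF-RELA (log2 difference 0.11, SE 0.35, adjusted p = 1 in edgeR). NFKB1, NFKB2 and RELB, the subunits p105, p100 and RelB, had log2 differences of -0.02, -0.03 and -0.004. The libraries overlapped in all 4 genes. The sign of NFKB1, NFKB2, RELB and, with the block, NFKBIA changed when single libraries were left out, and that of RELB under other scalings. Of the 16 subunits and inhibitors, RELA alone was called. Of all tested genes, 0.113% were called higher without the block and 0.62% with it.

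Of 32 NF-kB targets among chemokines, cytokines, adhesion and survival genes, 31 were tested and none was called in either fit. Since only 0.162% of all tested genes were called without the block and 0.847% with it, the lack of a call among 31 genes is close to those shares. The list's medians were -0.20 without the block and -0.10 with it. CXCL8 was at 141, 416 and 210.4 CPM in SRF-PDGFRB and at 56.5, 394 and 142 CPM in SRF-RELA, highest in replicate 2 of both groups. IL6 was at 13.7, 13.9 and 6.46 CPM against 8.44, 21.1 and 4.22 CPM, and CCL2 at 129, 190.1 and 248 CPM against 86.7, 229 and 195 CPM. None of these 3 chemokine and cytokine genes separated the groups, with log2 differences of -0.30, 0.06 and -0.08 and standard errors of 0.98, 0.91 and 0.45. TNFAIP3, ICAM1 and SOD2, further genes that NF-kB drives, were at 0.24, 0.30 and 0.34, also with overlap.

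**Figure D4:**
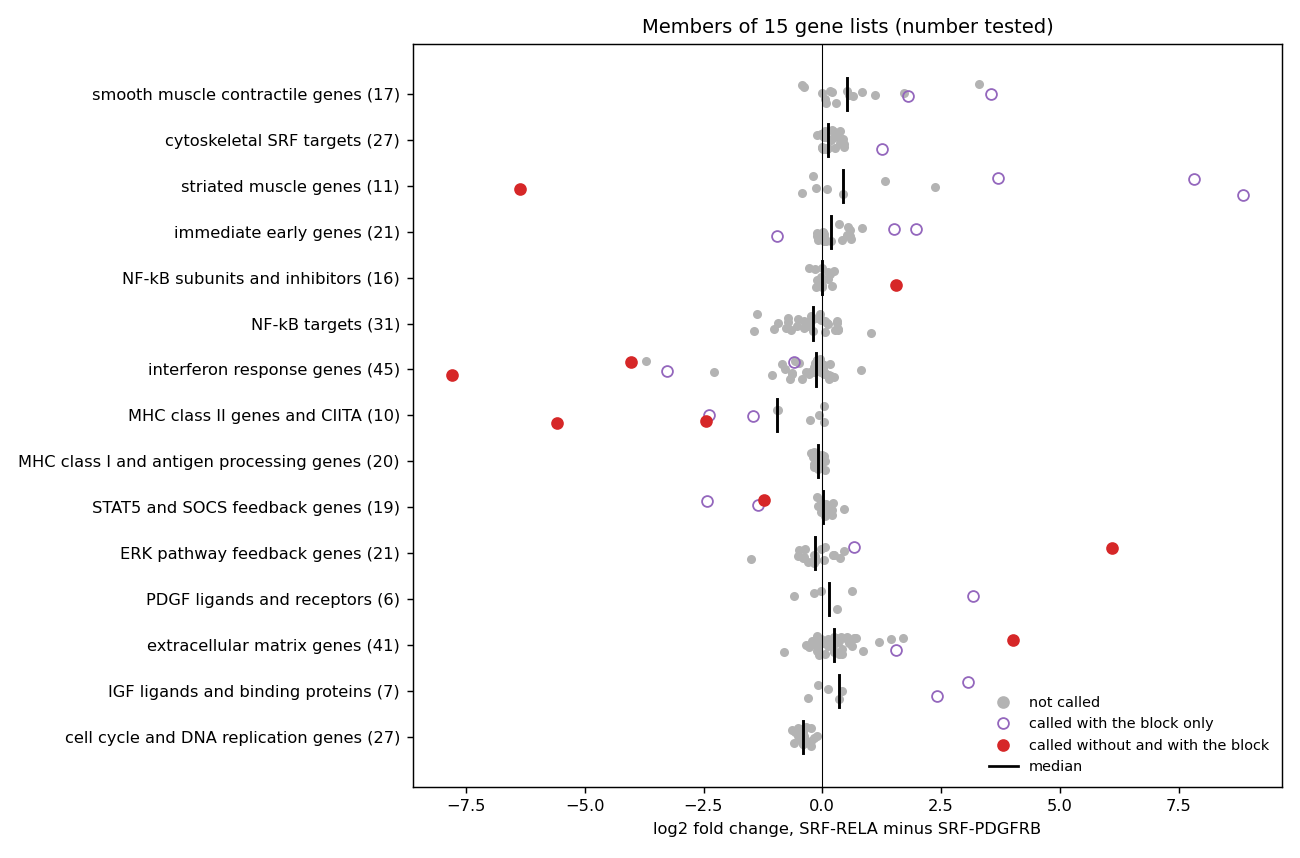
Log2 difference, SRF-RELA minus SRF-PDGFRB for the tested members of 15 gene lists, 1 point per gene, with the number tested in parentheses and a black bar at the median. Red points were called without and with the block, open purple circles with the block only, grey points in neither. Class II MHC genes have the lowest median (-0.94) and smooth muscle genes the highest (0.53). The lists of NF-kB targets, class I MHC and antigen processing genes, and cell cycle and DNA replication genes hold no called gene. Over all tested genes, 0.847% were called with the block.

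No cell cycle or DNA replication gene was called in either fit to the 18 libraries, where 0.162% and 0.847% of all tested genes were called. All 27 were tested, and all 27 log2 differences were negative, from -0.64 to -0.11, with a median of -0.40. The sign of the median was the same when the libraries were scaled by total count (-0.46), and its size was -0.23 without SRF-PDGFRB replicate 3, -0.24 without SRF-RELA replicate 1 and -0.66 without SRF-RELA replicate 3. MKI67, the proliferation marker, was at means of 135 and 97.4 CPM in SRF-PDGFRB and SRF-RELA, with overlap. CCNE2, which encodes cyclin E2, was the only member of the 27 whose groups did not overlap (log2 difference -0.64). Over all tested genes, SRF-RELA lay wholly below in 9.76%. Genes of a list share their libraries and vary together, so these counts are a description. When the block was fitted to only the 6 compared libraries, 2.73% of 17128 tested genes were called, 1.63% higher in SRF-RELA and 1.09% lower. In that fit 4 of the 27 cell cycle genes were lower, 6 interferon response genes were lower, 4 cytoskeletal SRF targets and 5 matrix genes were higher, and 5 immediate early genes were higher and 1 lower. It also called 1 NF-kB target lower, 1 STAT5 and SOCS feedback gene higher and 3 lower, and 1 ERK feedback gene higher and 3 lower.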

How the data were processed

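Per the labels, stranded mRNA libraries were sequenced on a NovaSeq instrument. The authors deposited raw counts per Ensembl gene, 1 column per library. Per the submitters' processing notes, reads were handled with FastQC 0.11.8, Trimmomatic 0.39, HISAT2 2.12.1 and featureCounts (Subread 2.0.3) on GRCh38; the annotation release and strand setting are not given in the sources used here, so reads of overlapping, antisense or similar genes could have been split. Of 61487 identifiers, 61369 took a symbol from a gene name table, 105 from GENCODE and 13 had none.

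Genes were filtered with filterByExpr (minimum count 10), libraries scaled by TMM, and edgeR 4.0.16 (R 4.3.3) quasi-likelihood F tests, robust and two-sided, were fitted to 18 libraries with 1 coefficient per group (12 residual degrees of freedom, common coefficient of variation 0.225). SE is the absolute log2 fold change over the square root of F. CPM uses total counts without TMM factors. Where a group held 1 to 3 counts, a ratio of summed counts with an exact 95% interval is given. On simulated data with 18233 genes, 64.2%, 92.5% and 95.5% of genes changed by 1, 2 and 3 on the log2 scale were recovered without the block. The changed genes all had a mean log2 CPM over 1, and the simulated libraries held no effect of replicate number. The shares therefore do not carry over to genes with fewer counts or to genes that vary with the replicate number.

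The pairing by replicate number is read from the values, since the labels do not say what a number marks. Deviations of same-numbered SRF-RELA and SRF-PDGFRB libraries from their group means correlated at 0.347 to 0.435 across genes, and those of differently numbered libraries at -0.309 to -0.124. Deviations cancel out within a group, so the negative values follow largely from the positive ones and are not separate evidence of pairing. The blocked fit had 10 residual degrees of freedom and a coefficient of variation of 0.15. Replicates of a group differed by 22.7 to 62.3 times the sampling noise (chi-square per degree of freedom), so none is a copy of another.

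The comparison, gene lists and named genes were chosen with earlier results of these data known. Named were SRF, RELA, PDGFRB, 21 fixed genes, up to 20 called genes per direction by size, up to 10 per direction called with the block only (mean log2 CPM of at least 1, no overlap), and up to 4 called members per list; a few of these are not reported here. Alternatives were DESeq2 1.42.0 size factors and Wald test, total count scaling, other filters, only the 6 compared libraries, the replicate block, and leaving out each library.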

Additional observations from a re-analysis of the deposited data

How the results depend on the processing

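The count of called genes, 30, was 37 with DESeq2 size factors, 40 with total count scaling, 43 without a count filter and 30 with a size of at least 1 on the log2 scale required as well. It was 121 with the DESeq2 Wald test (102 higher in SRF-RELA, 19 lower), 6 with at least 10 counts in every library, 7 with only the 6 compared libraries, 157 with the replicate block, and 467 with the block and only those 6 libraries (280 higher, 187 lower), 60% higher against 73.2% with the block in all 18. Leaving out 1 library gave 13 to 28 without the block and 69, 74, 82, 94, 105 and 112 with it, lowest without SRF-PDGFRB replicate 2. All 30 genes were also called by the Wald test, with either other scaling and with the block. The filter of at least 10 counts in every library left CDH3, CXCL9, HLA-DRA, DUSP2, KRT12 and FOXRED2 untested, since each held fewer in some library. For the rest of that drop and for the other counts the cause was not tested. Total count scaling moved the median of all genes by -0.06. Of the named genes, only ones that were not called in any direction changed sign. RELB was at 0 with DESeq2 size factors and Wald test, 0.003 with the 6 libraries, 0.010 with the block and 0.002 with both, and IL6 at -0.017 with total count scaling and -0.10 with the block and the 6 libraries. Leaving out 1 library without the block gave -0.086 to 0.048 for NFKB1, -0.162 to 0.087 for NFKB2, -0.092 to 0.056 for RELB, 0.002 to 0.217 for NFKBIA, -1.339 to 0.261 for CXCL8, -0.82 to 0.445 for IL6, -0.391 to 0.235 for CCL2 and -0.202 to 0.402 for SOCS3. With the replicate block, the values of the opposite sign were 0.025 and 0.079 for NFKB1, 0.043 and 0.121 for NFKB2, 0.065 and 0.174 for RELB, -0.038 and -0.114 for NFKBIA, 0.294 and 0.225 for CXCL8, -0.13 and -1.028 for IL6, and 0.052, 0.012 and 0.271 for CCL2. With 2 libraries in a group, the spread is taken from the other groups. Depth limits genes with few counts: a count of 0 allows up to 3 counts of a library's total, for counting error only.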

Other observations

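Several further genes were called with the replicate block only and were named after their values were seen. Toward SRF-RELA these included HGF, the ligand of the MET receptor (log2 fold change 1.28), F3, the tissue factor that starts coagulation (1.48), CD248, a surface glycoprotein of stromal cells (1.02), AGTR1, the angiotensin II receptor (0.75), and SMAD3, the effector of TGF-beta signalling (0.67). Their edgeR adjusted p with the block were 0.0367, 0.00392, 0.00136, 0.00699 and 0.0361, and without it 0.634, 0.596, 0.415, 0.549 and 0.246. Toward SRF-PDGFRB they included F2RL3, the thrombin receptor PAR4 (-3.79), LAMP3, a lysosomal membrane protein (-2.88), and ALDH1A1, a retinaldehyde dehydrogenase (-2.20), with edgeR adjusted p of 0.00285, 0.0263 and 0.0425 with the block and 0.27, 0.383 and 0.377 without it. SOCS2-AS1, which lies antisense to SOCS2, was at -2.45 (edgeR adjusted p = 0.000455 with the block, 0.395 without), and since the strand setting of the counting is not given in the sources used here, its reads cannot be told apart from those of SOCS2. Leaving out any 1 of the 6 libraries ended the blocked call of HGF, SMAD3, LAMP3 and ALDH1A1 (edgeR adjusted p up to 0.252), and that of AGTR1 was lost without SRF-PDGFRB replicate 2 or 3 or SRF-RELA replicate 2 (up to 0.0881). For each of these genes the 3 SRF-RELA libraries did not overlap the 3 SRF-PDGFRB libraries. The same held for 108 of the 115 genes called higher with the block and 36 of the 42 called lower. Genes called on these libraries were thus favoured in advance to be apart, and this is no separate support.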
